A study of Mus musculus with 16 samples.

Results

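Cyclins are the regulatory subunits that switch on the cyclin-dependent kinases (CDKs), and the 9 described here cover the passage from G1 into S phase and on to mitosis: Ccnd1, Ccnd2, Ccnd3, Ccne1, Ccne2, Ccna2, Ccnb1, Ccnb2 and Ccnf. They were taken by gene symbol from the annotation of an Illumina mouse expression BeadChip, which gave 12 probes among 24613, and the brightest detected probe stood for each gene. Of the 9 cyclins, 8 had a probe and 7 had a probe above background (detection p under 0.05) on at least 2 arrays, out of 15967 genes with a probe. The annotation held no probe for Ccnb1, which is not analysed here, and the Ccnb2 probe was above background on 0 of 16 arrays.

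The D-type cyclins pair with Cdk4 and Cdk6 in G1, are made in answer to growth factors, and start the phosphorylation of the retinoblastoma protein. The E-type cyclins pair with Cdk2 at the start of S phase and are themselves E2F targets, cyclin A2 acts in S phase and G2, and the B-type cyclins drive mitosis with Cdk1. Cyclin F binds no CDK and instead serves as the substrate receptor of an SCF ubiquitin ligase in G2.

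The study measured mouse embryonic fibroblasts (MEFs) with 1 array for each of 16 conditions. One set of 8 arrays came from cells transformed with RasV12 and E1A, oncogenes that drive proliferation. These cells carried either floxed Smad1 (Smad1f/f, titled pbabe) or its Cre-deleted form (Smad1-/-, titled cre), and were untreated at 0 h or held for 12 h with BMP2, with ADR, or with both. The other 8 arrays came from non-transformed primary MEFs at passage 2, genotype "control", untreated or with BMP2, ADR or both, at 8 h and at 16 h. BMP2 is a bone morphogenetic protein that signals through Smad1 and its relatives, and ADR is the label of a DNA-damaging agent, named as doxorubicin in the design text. Doses are unsettled: for BMP2 the titles give 100 ng/ml and the design text 50 ng/ml, and for the second agent the titles give 0.3 uM ADR and the design text doxorubicin at 1 ug/ml. Nothing in the labels says how many embryos, clones or cultures each set stands for. With no condition repeated, the error of a comparison came from how far the arrays of a set departed from additive effects of genotype or time and of the agents, fitted with limma. Its p-values therefore measure that spread, which may be technical, and were adjusted over all genes tested (two-sided, threshold 0.05).

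Several arrays went against what their labels lead one to look for, and this touches the results below. Smad1 itself lay between 8.73 and 8.87 on the normalised log2 scale on the 4 Smad1f/f arrays and between 8.36 and 9.14 on the 4 arrays labelled Smad1-/- (difference 0.0093 ± 0.13 SE, limma, adjusted p = 0.993). The sources used here do not give the probe's place relative to the deletion. For the array labelled Smad1-/- with BMP2, 100% of the deposited signals were a copy of those on its Smad1f/f counterpart. Its signals were therefore rebuilt from the authors' log2 table, and what leaving it out did to the calls that use it is given below. All 12 fibroblast markers were above background on all 8 transformed arrays, but only 5 of 12 on all 8 primary arrays, where 7 were above background on none (Col1a1, Col1a2, Col3a1, Thy1, Postn, Dcn and Lum). The summed fibroblast signal ran from 53300 to 62100 on the transformed arrays and from 16600 to 23100 on the primary arrays. Of the epithelial markers, the keratin Krt18 averaged 5.41 on the transformed and 11.17 on the primary arrays, and St14 was above background on 3 transformed and 8 primary arrays. The other way, Krt7 was above background on 8 transformed and 2 primary arrays (mean 7.35 and 5.25), Krt19 on 4 and 0, and Cldn4 on 8 and 6, while Epcam, Cdh1 and Krt8 were above background on none of the 16. The endothelial markers Pecam1, Cdh5, Kdr and Tek and the leukocyte markers Ptprc and Itgam were also above background on none. Emcn, also endothelial, was above background on 8 transformed and 3 primary arrays and Vwf on 2 and 0, and the macrophage markers Adgre1 and Lyz2 were above background on all 8 transformed and 0 primary arrays. Summed signals on the transformed and primary arrays ran from 274 to 1520 and from 1980 to 4520 for the epithelial list, from 199 to 222 and from 169 to 178 for the endothelial list, and from 202 to 307 and from 93.1 to 102 for the leukocyte list. The part of these markers in the differences between the sets was not tested. Between 40.1% and 46.8% of probes were above background on an array.

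Promoter sequences show which cell-cycle motifs lie before the cyclins whose values are described below. RefSeq promoters on build GRCm38.p6 were found for 5 of the 9 cyclins, Ccnd3, Ccne1, Ccnb1, Ccnb2 and Ccnf, with 2 start sites for Ccnd3. The 250 bases before each start were searched on both strands for CCAAT, for the cell-cycle homology region (CHR) letters TTTGAA or TTCGAA, and for E2F letters in 4 forms, namely TTTGGCG or TTTCCCG or TTTCGCG or TTTGCCG. Of 32851 promoters in the table, 33.8% held CCAAT, 17.1% a CHR and 5.51% an E2F match. Shown are Ccne1, the cyclin with the widest fall when ADR was added to BMP2, Ccnd3, whose probes disagreed and which has more than 1 start, and Ccnf, near background in one set and above it in the other; motif matches are in capitals.
Ccne1, chr7:38107491-38107740, minus strand: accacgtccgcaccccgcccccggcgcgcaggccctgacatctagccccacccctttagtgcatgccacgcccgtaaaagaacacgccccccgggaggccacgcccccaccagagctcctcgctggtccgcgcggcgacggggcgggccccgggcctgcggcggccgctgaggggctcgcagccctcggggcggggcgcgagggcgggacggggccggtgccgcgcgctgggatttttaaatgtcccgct
Ccnd3, upstream start, chr17:47504801-47505050, plus strand: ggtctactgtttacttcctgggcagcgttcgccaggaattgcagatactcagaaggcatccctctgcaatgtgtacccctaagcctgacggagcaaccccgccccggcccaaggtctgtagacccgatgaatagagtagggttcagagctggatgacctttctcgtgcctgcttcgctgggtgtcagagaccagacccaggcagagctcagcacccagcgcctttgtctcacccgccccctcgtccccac
Ccnd3, downstream start, chr17:47593217-47593466, plus strand: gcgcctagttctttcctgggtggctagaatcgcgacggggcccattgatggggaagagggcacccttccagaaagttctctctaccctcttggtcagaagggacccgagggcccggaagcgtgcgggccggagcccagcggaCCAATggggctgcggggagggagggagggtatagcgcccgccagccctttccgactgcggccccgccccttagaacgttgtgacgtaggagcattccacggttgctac
Ccnf, chr17:24251410-24251659, minus strand: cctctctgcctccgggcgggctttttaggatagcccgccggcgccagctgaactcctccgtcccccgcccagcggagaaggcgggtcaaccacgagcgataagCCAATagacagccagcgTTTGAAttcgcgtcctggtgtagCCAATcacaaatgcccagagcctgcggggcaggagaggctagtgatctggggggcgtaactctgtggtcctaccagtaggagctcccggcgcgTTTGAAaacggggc
The Ccnf window held 2 CCAAT matches, 147 and 107 bases before the start, and 2 CHR matches, 130 and 14 bases before it. The downstream Ccnd3 start had 1 CCAAT match 108 bases before it. None of these letters occurred in the Ccne1 window or before the upstream Ccnd3 start. Of the cyclins without a usable signal, Ccnb1 (chr13:100786487-100786736, minus strand) held 2 CCAAT matches, and Ccnb2 (chr9:70421555-70421804, minus strand) held 3 CCAAT matches and 1 CHR match. No E2F match occurred in any of the 6 windows, which says only that these letters are not there.

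The level of single cyclins differed between the transformed and primary arrays, in either direction. Ccnd2 and Ccnd1, which start G1, were higher on the transformed arrays, and the S-phase cyclins Ccne2 and Ccna2 were lower, while Ccnf was close to background there. Levels below are normalised log2 signals, which compare one probe across arrays and not one gene with another. Set, culture, genotype, times and cell makeup differ together between these groups and cannot be told apart, and neither can fewer cells expressing a gene be told from less RNA per cell. The 6 cyclins above background in both sets passed in this comparison, but so did 81.6% of all genes.

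Ccnd2 ranged from 11.97 to 12.90 on the transformed arrays (median 12.64) and from 8.54 to 9.41 on the primary arrays (median 8.97). Every transformed array lay above every primary array, and the difference was 3.55 ± 0.060 SE in log2 (11.7-fold, adjusted p = 2.21e-13, limma, 8 arrays against 8). Ccnd1 ranged from 12.16 to 12.67 on the transformed and from 10.54 to 11.72 on the primary arrays, again without overlap, a difference of 1.496 ± 0.055 (2.82-fold, adjusted p = 2.12e-10, limma). The other 3 Ccnd1 probes gave 1.24, 1.34 and 1.57. Both D-type cyclins were thus set apart by more than any spread within a set.

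Ccne2 ran the other way, from 6.35 to 7.37 on the transformed and from 8.29 to 8.71 on the primary arrays (difference -1.60 ± 0.067, 3.04-fold lower, adjusted p = 6.13e-10, limma). Ccna2 lay between 5.25 and 6.62 on the transformed and between 6.84 and 7.59 on the primary arrays (difference -1.14 ± 0.15, adjusted p = 1.65e-05, limma). For both cyclins the sets did not overlap. Ccnf was above background on 1 of 8 transformed arrays (Smad1f/f with both agents) at values from 4.62 to 5.21, against 8 of 8 primary arrays at 6.06 to 7.11. It was tested only because of the primary arrays, so no size or p of this difference is given. Ccne1 overlapped between the sets, at 7.46 to 8.74 and 7.94 to 9.33, with a smaller difference of -0.54 ± 0.066 (adjusted p = 1.05e-05, limma).

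Ccnd3, the third D-type cyclin, gave no settled direction. Its brightest probe lay between 6.01 and 6.77 on the transformed and between 6.12 and 7.50 on the primary arrays, a difference of -0.44 ± 0.074 (adjusted p = 0.000155, limma). The second Ccnd3 probe, above background on 14 of 16 arrays, gave 0.31, and the mean of both gave -0.065 (adjusted p = 0.364, limma). Ccnb2 values ran from 4.48 to 4.84 over all 16 arrays, none above background.

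**Figure D1:**
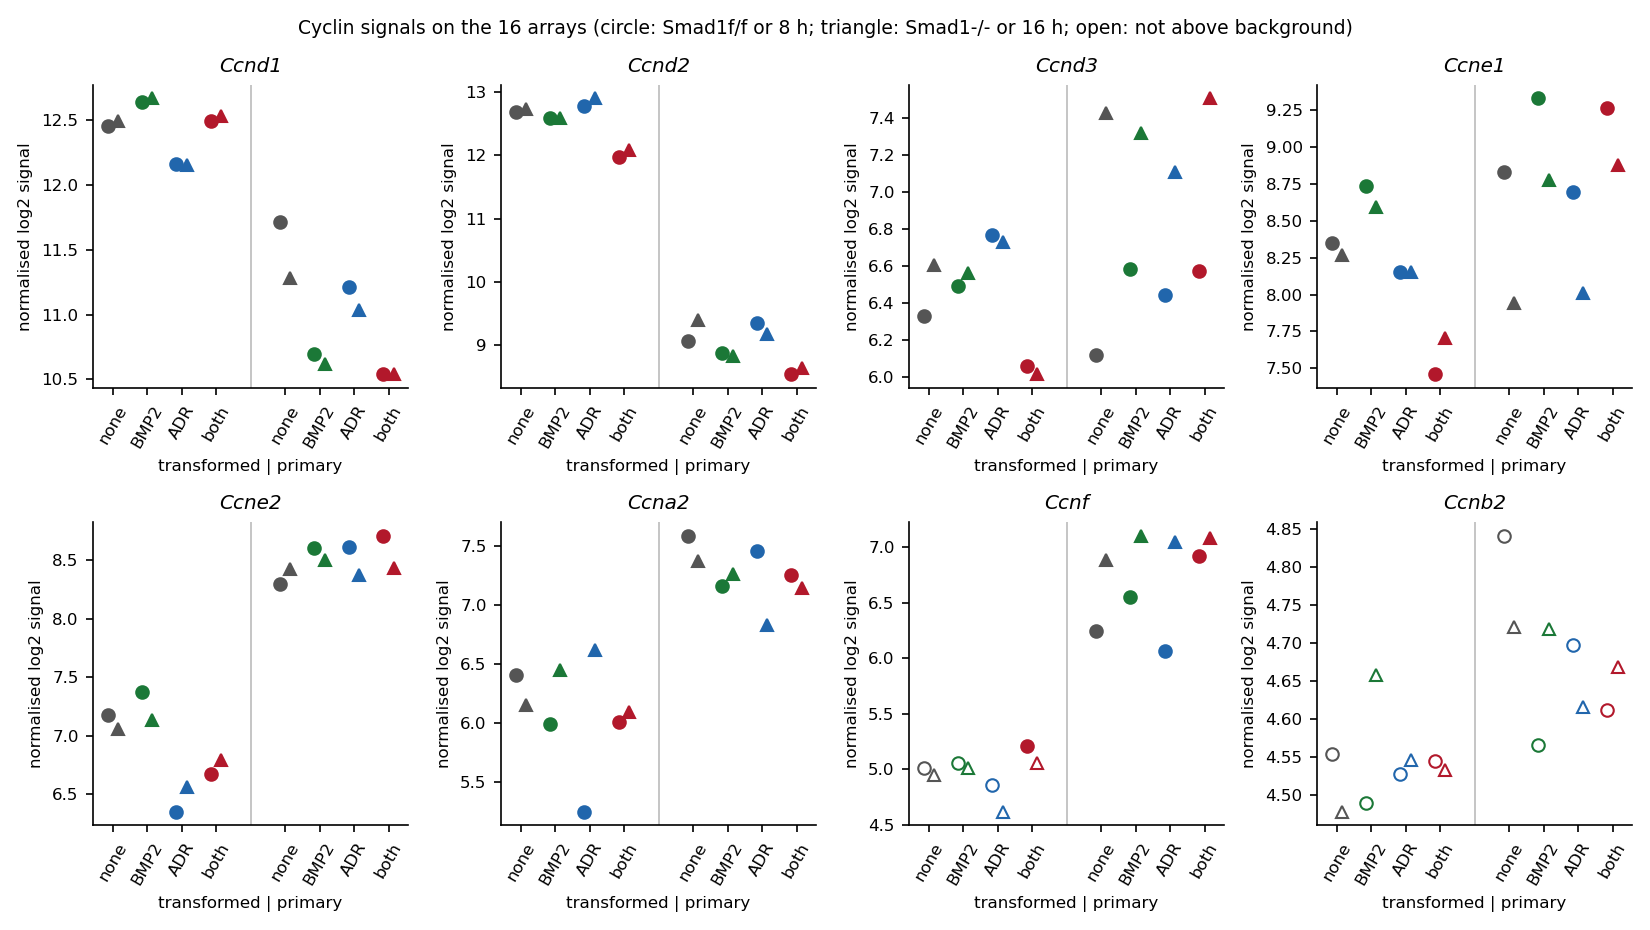
Normalised log2 signal (vertical axis, scaled per gene) of the brightest probe of 8 cyclins on each of 16 arrays, by agent within the transformed (left) and primary (right) set; circles are Smad1f/f or 8 h, triangles the arrays labelled Smad1-/- or 16 h, and open symbols were not above background. Ccnd1 and Ccnd2 are higher on all transformed arrays, Ccne2, Ccna2 and Ccnf on all primary arrays, and Ccne1 is lowest on the 2 transformed arrays with both agents.

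Other genes of the cell-cycle machinery were also lower on the transformed arrays. Of 10 tested proliferation readouts 10 were lower (median -1.71, against -0.10 over all 10982 genes), with Mcm2, a helicase subunit for replication, at -2.08 and Tk1, a thymidine kinase, at -1.80. Of 14 tested E2F, RB and DREAM genes 13 were lower and 1 higher, and of 21 switch and destruction genes 18 were lower and 1 higher. Among the CDKs, 5 of 12 were higher and 5 lower: Cdk1, the mitotic kinase, differed by -1.47 and Cdk2, the partner of cyclins E and A, by -1.64, while Cdk4, a partner of the D-type cyclins, was higher by 0.31. The lists of other cyclins and of CDK inhibitors were split too. Without the rebuilt array 3 of 11 other cyclins were higher and 5 lower, and 2 of 6 inhibitors were higher and 3 lower. These counts stand against the 81.6% of all genes that differed.

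**Figure D2:**
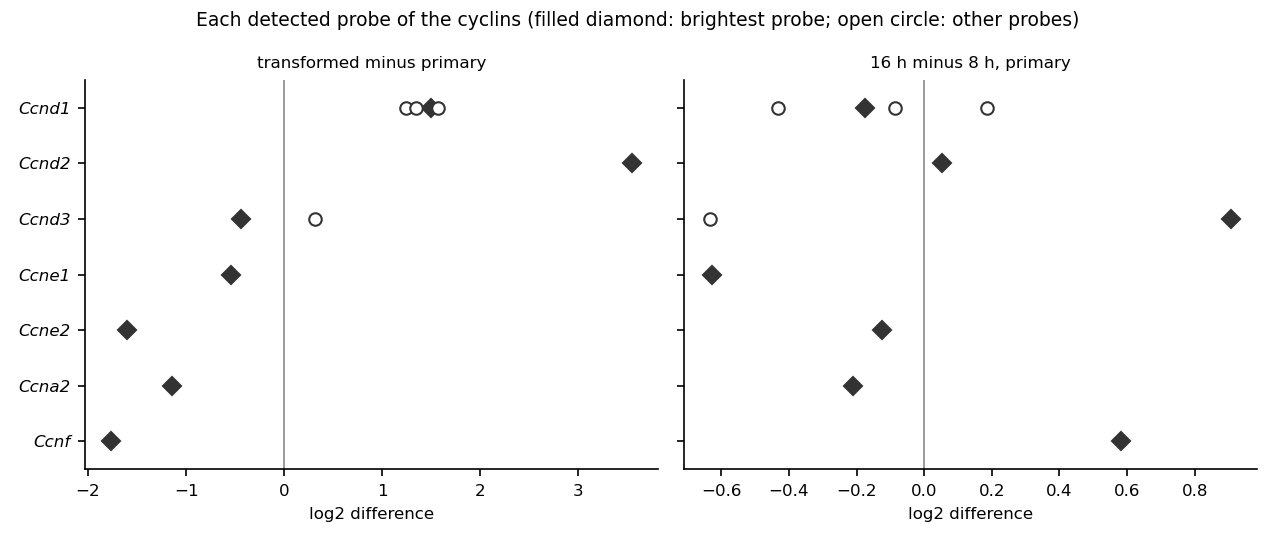
Log2 difference (horizontal axis) for each detected probe of 7 cyclins between the sets (left) and between 16 h and 8 h on the primary arrays (right); filled diamonds are the brightest probes and open circles the others. The 4 Ccnd1 probes lie together between 1.24 and 1.57 on the left, whereas the 2 Ccnd3 probes lie on opposite sides of 0 in both panels. The left Ccnf point is not to be read as a size, since Ccnf was above background on 1 of 8 transformed arrays.

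Adding ADR to BMP2 on the transformed arrays lowered 4 of the 6 cyclins that could be tested: Ccne1, Ccnd2, Ccne2 and Ccnd3. This comparison is matched in time, with both agents for 12 h against BMP2 for 12 h, on 2 arrays a side. Over all 10276 genes tested, 35.7% passed in either direction and 17.5% passed as lower. The median change was -0.50 for the 6 cyclins and -0.022 for all genes. None of the 6 rose. Ccnf was not tested within this set because it was above background on only 1 of its arrays.

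Ccne1, which activates Cdk2 at the entry to S phase, measured 8.74 (Smad1f/f) and 8.59 (Smad1-/-) with BMP2 and 7.46 and 7.70 with both agents. The arrays with both agents were the lowest of the set. The change was -1.08 ± 0.12 SE (2.12-fold lower, limma, adjusted p = 0.000741), with a fall in 2 of 2 genotype pairs (-1.28 and -0.89). Without the rebuilt array it was -1.18 (adjusted p = 0.00535, limma). Ccne2, its close relative, went from 7.37 and 7.13 to 6.68 and 6.79, a change of -0.52 ± 0.13 (adjusted p = 0.0204, limma). Both pairs were lower, at -0.70 and -0.34, and without the rebuilt array the change was -0.67 (adjusted p = 0.0288, limma).

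Ccnd2, a D-type cyclin, measured 12.59 and 12.59 with BMP2 and 11.97 and 12.08 with both agents, again the lowest values of the set. It changed by -0.57 ± 0.098 (adjusted p = 0.00416, limma), lower in both pairs, and by -0.62 without the rebuilt array (adjusted p = 0.0227). Ccnd3 went from 6.49 and 6.56 to 6.06 and 6.01, a change of -0.49 ± 0.12 (adjusted p = 0.015, limma), and its second probe changed by -0.41. The third D-type cyclin, Ccnd1, measured 12.64 and 12.67 with BMP2 and 12.49 and 12.53 with both, a change of -0.14 ± 0.094 that did not pass (95% interval -0.36 to 0.078, adjusted p = 0.279, limma). One of its other probes gave 0.13 and the remaining pair -0.35 and -0.21. Ccna2, the S and G2 cyclin, did not pass either, at -0.17 ± 0.33 (adjusted p = 0.723, limma); its values of 5.99 and 6.45 with BMP2 and 6.01 and 6.10 with both overlapped.

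The Ccne1 and Ccnd2 calls held when any single array was left out, but those of Ccnd3 and Ccne2 did not. Ccnd3 gave an adjusted p of 0.075 without the Smad1f/f BMP2 array, 0.0764 without the rebuilt array and 0.103 without the Smad1-/- array with both agents, by limma. The adjusted p of Ccne2 was 0.149, 0.134 and 0.0587 without the Smad1f/f BMP2 array, the Smad1f/f array with both agents and the Smad1-/- array with both agents. With median scaling in place of quantile normalisation both calls were also lost (Ccnd3 -0.24, Ccne2 -0.31), and 70.6% rather than 51.2% of the called genes were higher, with the median of all genes at 0.096 rather than -0.022. A fit that lets BMP2 and ADR only add up called none of the 4 (adjusted p from 0.0583 to 0.731, limma). Its single ADR term also takes in ADR alone, 12 h against 0 h. That fit is therefore not a check of this comparison by itself.

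BMP2 added to ADR, the other comparison matched at 12 h, shares the arrays with both agents, so its values are not independent of those above. Of the 6 cyclins, 3 fell and 1 rose, against 57.2% of all genes called. Against ADR alone (12.77 and 12.90), Ccnd2 with both agents was lower by 0.81 on the log2 scale (change -0.81 ± 0.098, adjusted p = 0.000296, limma). Ccnd3 changed from 6.77 and 6.73 by -0.71 ± 0.12 (adjusted p = 0.00132, limma), though its second probe gave only -0.17. Ccne1, at 8.15 on both ADR arrays, changed by -0.57 ± 0.12 (adjusted p = 0.00502, limma). These falls were seen in 2 of 2 pairs for each gene. With additive terms Ccnd3 (-0.33, adjusted p = 0.139) and Ccne1 (-0.11, adjusted p = 0.672) did not pass in limma. The single BMP2 term of that fit also takes in BMP2 alone, 12 h against 0 h.

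Ccnd1 moved the opposite way in that comparison. It measured 12.16 on both ADR arrays and 12.49 and 12.53 with both agents, a rise of 0.35 ± 0.094 (adjusted p = 0.0142, limma), and its other probes gave 0.39, 0.42 and 0.91. The call was lost when any of the 4 arrays compared was left out, with adjusted p between 0.0508 and 0.0723 by limma and values from 0.33 to 0.37. Ccne2 (0.28 ± 0.13, adjusted p = 0.111, limma) did not pass. The Ccna2 arrays with ADR lay far apart, at 5.25 (Smad1f/f) and 6.62 (Smad1-/-), and its change of 0.12 ± 0.33 did not pass (adjusted p = 0.781, limma). Its genotype pairs went opposite ways, by 0.76 (Smad1f/f) and -0.52 (Smad1-/-). Leaving out 1 array gave values from -0.52 to 0.76, the highest without the Smad1-/- ADR array.

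**Figure D3:**
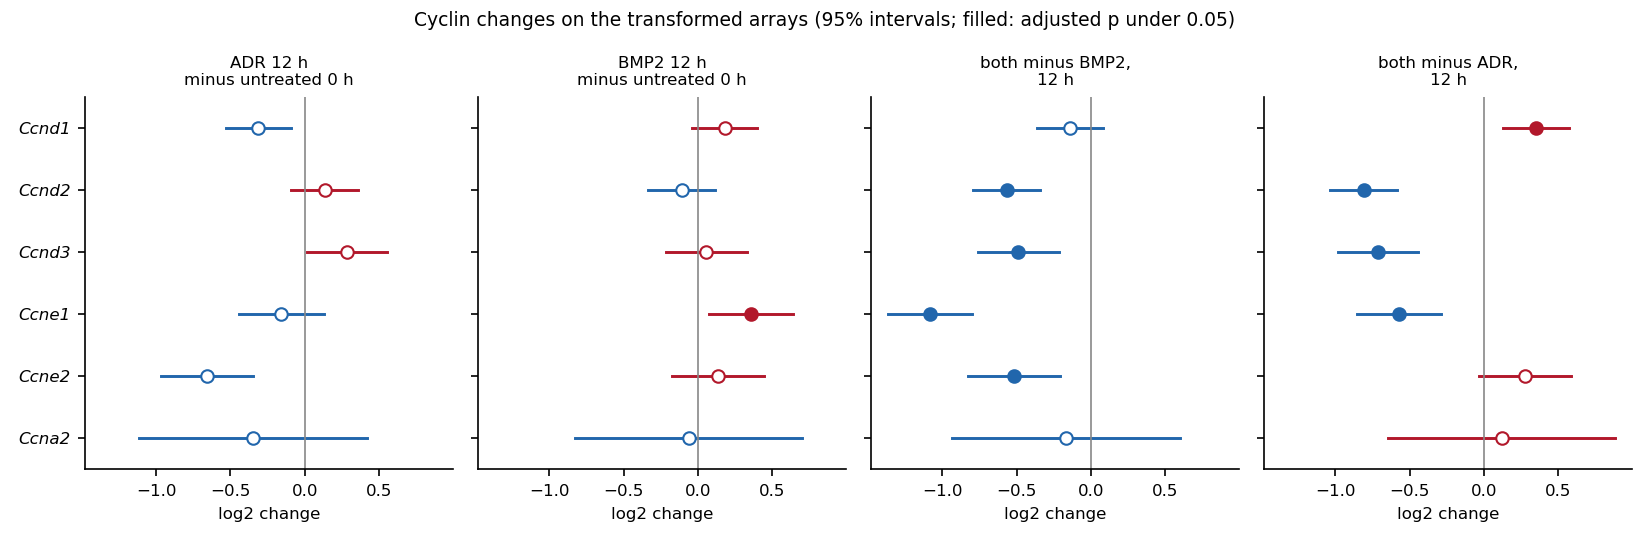
Log2 change with its 95% interval (horizontal axis) of 6 cyclins on the transformed arrays in 4 comparisons of 2 arrays against 2; filled points had an adjusted p under 0.05 in limma. No cyclin passed for ADR alone (0.525% of all genes did) and only Ccne1 for BMP2 alone (46.5% of all genes). In each of the comparisons with both agents 4 of 6 passed, against 35.7% and 57.2% of all genes. Ccnd1 was the only cyclin that passed as higher in the last panel.

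Each agent alone was compared with untreated cells at 0 h, so 12 h of culture goes with it and cannot be told apart from the agent. With ADR alone 0 of 6 cyclins passed, against 0.525% of all genes (54 genes, and 1839 at an unadjusted p under 0.05, by limma). The widest difference was that of Ccne2, which measured 7.18 and 7.05 untreated and 6.35 and 6.56 with ADR (-0.66 ± 0.13, adjusted p = 0.0815, limma). Ccnd1 measured 12.45 and 12.49 untreated (-0.31 ± 0.094, adjusted p = 0.159, limma). For both cyclins the ADR arrays lay below the untreated ones without overlap. On the authors' log2 values, and with a robust variance trend, both passed (adjusted p between 0.0221 and 0.0344, limma). Under median scaling 22.5% rather than 61.1% of called genes were higher.

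With BMP2 alone 1 of 6 cyclins passed, against 46.5% of all genes. Ccne1 rose from 8.35 and 8.27 to 8.74 and 8.59 (0.36 ± 0.12, adjusted p = 0.0444, limma). The call sat close to the threshold: it was lost without either untreated, either BMP2 or either ADR array (adjusted p from 0.06 to 0.253, limma), and under median scaling the change was 0.042, with 27.8% rather than 48.8% of called genes higher (median of all genes -0.19 rather than -0.0017). The additive fit has a single BMP2 term for this comparison and for BMP2 added to ADR. Its value for Ccne1, -0.11 (adjusted p = 0.672, limma), is therefore the one given above. Ccnd1 (0.18, adjusted p = 0.155), Ccnd2 (-0.11, adjusted p = 0.393) and the others did not pass in limma.

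The change with ADR beside BMP2 (12 h against 12 h) was set against the change with ADR alone (12 h against 0 h) as an interaction term, in which 17.9% of all genes passed. Because the untreated arrays are at 0 h, this term also holds the 12 h of culture, and both cannot be told apart. Ccne1 (-0.93 ± 0.17, adjusted p = 0.0124), Ccnd3 (-0.77 ± 0.16, adjusted p = 0.0195) and Ccnd2 (-0.70 ± 0.14, adjusted p = 0.0153) passed in limma, all in the negative direction. Ccnd1 (0.17), Ccne2 (0.14) and Ccna2 (0.18) did not. Side by side, Ccne2 was lower by 0.66 with ADR alone and by 0.52 with ADR added to BMP2, while Ccne1 changed by -0.16 and -1.08. The calls of Ccne1, Ccnd3 and Ccnd2 depended on scaling and on single arrays. Under median scaling their adjusted p rose to 0.0638, 0.0882 and 0.0729, and 86.8% rather than 53.5% of called genes were higher (median of all genes 0.20 rather than -0.020). Leaving out the Smad1f/f BMP2 array left 0 of the 3, and leaving out either untreated array or the Smad1-/- array with both agents left 1. Leaving out the rebuilt array, the Smad1f/f ADR array or the Smad1f/f array with both agents left 2. Without the rebuilt array the values were -1.03 for Ccne1 (adjusted p = 0.0305), -0.75 for Ccnd2 (0.0441) and -0.77 for Ccnd3 (0.0641), by limma. The mean of its 2 probes gave Ccnd3 an adjusted p of 0.0702 by limma.

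The genotype label separated no cyclin. Between the arrays labelled Smad1-/- and Smad1f/f, 0 of 6 cyclins and 0% of all genes passed in limma, with 1027 genes at an unadjusted p under 0.05. Intervals for Ccnd1 (-0.13 to 0.18) and Ccne1 (-0.19 to 0.21) lay close to 0, whereas that of Ccna2 was wide (-0.13 to 0.96 around 0.42, adjusted p = 0.612).

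Among genes of the machinery around the cyclins, the proliferation readouts were called most often when ADR was added to BMP2 on the transformed arrays. The lists of CDKs and of other cyclins were called about as often as all genes. All lists were drawn up with earlier results of the data known, so their counts are descriptions. They are to be read beside 35.7% of all genes called and a median of -0.022. Of 10 tested proliferation readouts 9 fell and none rose (median -1.30), led by Tk1 (-2.21 ± 0.0999), the replicative helicase subunits Mcm2 (-2.04 ± 0.10) and Mcm5 (-1.57 ± 0.14), and Top2a (-2.02 ± 0.15), a topoisomerase of S phase and mitosis. Of 12 CDKs 4 fell and none rose: Cdk1 (-1.01 ± 0.10), Cdk2 (-0.996 ± 0.099), Cdk16 (-0.65 ± 0.11) and Cdk8 (-0.58 ± 0.15). Cdk4 (0.14, adjusted p = 0.283) and Cdk6 (-0.24, adjusted p = 0.22), the partners of the D-type cyclins, did not pass in limma.

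Of 6 tested CDK inhibitors 3 rose and 1 fell. The risers were Cdkn2b (1.39 ± 0.11), an inhibitor of Cdk4 and Cdk6, Cdkn1a (0.65 ± 0.10), the p53 target p21, and Cdkn2a (0.60 ± 0.097), while Cdkn2d changed by -0.64 ± 0.15. With ADR alone (12 h against 0 h) Cdkn2a rose by 0.77 (adjusted p = 0.0268, limma). Neither Cdkn1a (-0.16, adjusted p = 0.459) nor Cdkn2b (0.40, adjusted p = 0.137) passed there in limma. Of 14 E2F, RB and DREAM genes 7 fell, among them E2f2 (-0.97 ± 0.21) and the mitotic gene activators Mybl2 (-0.91 ± 0.14) and Foxm1 (-0.88 ± 0.17), and 1 rose, Rb1 (0.70 ± 0.19), the retinoblastoma gene. Of 19 genes that switch or destroy cyclin-CDK complexes 10 fell and none rose. These included Skp2 (-1.34 ± 0.18), the ubiquitin ligase subunit that targets the inhibitor p27, the kinases Aurka (-0.78 ± 0.12) and Plk1 (-0.58 ± 0.099), and Bora (-0.73 ± 0.097), which helps Aurka activate Plk1. The list of other cyclins had 11 tested genes, among them Ccndbp1, a cyclin D1 binding protein and not itself a cyclin. In this list 3 rose: Ccnl1 (0.69 ± 0.10), a splicing cyclin, Ccnh (0.57 ± 0.12), the partner of Cdk7, and Ccndbp1 (0.57 ± 0.16). The 1 that fell was Ccnb3 (-0.51 ± 0.099), and the median of the list was 0.23. Under median scaling the count of higher genes rose to 6 of the 11 other cyclins and 2 of the 12 CDKs, and that of lower genes fell to 5 of 14 E2F, RB and DREAM genes, 5 of 19 switches and 8 of 10 readouts. Without the rebuilt array the calls still passed in the same direction for 8 of 9 readouts, 4 of 4 inhibitors, 3 of 4 CDKs, 6 of 10 switches, 3 of 8 E2F, RB and DREAM genes and 2 of 4 other cyclins. Among the genes named, those lost were Cdk8, E2f2, Foxm1, Rb1, Ccnh and Ccndbp1 (adjusted p from 0.0505 to 0.215, limma).

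**Figure D4:**
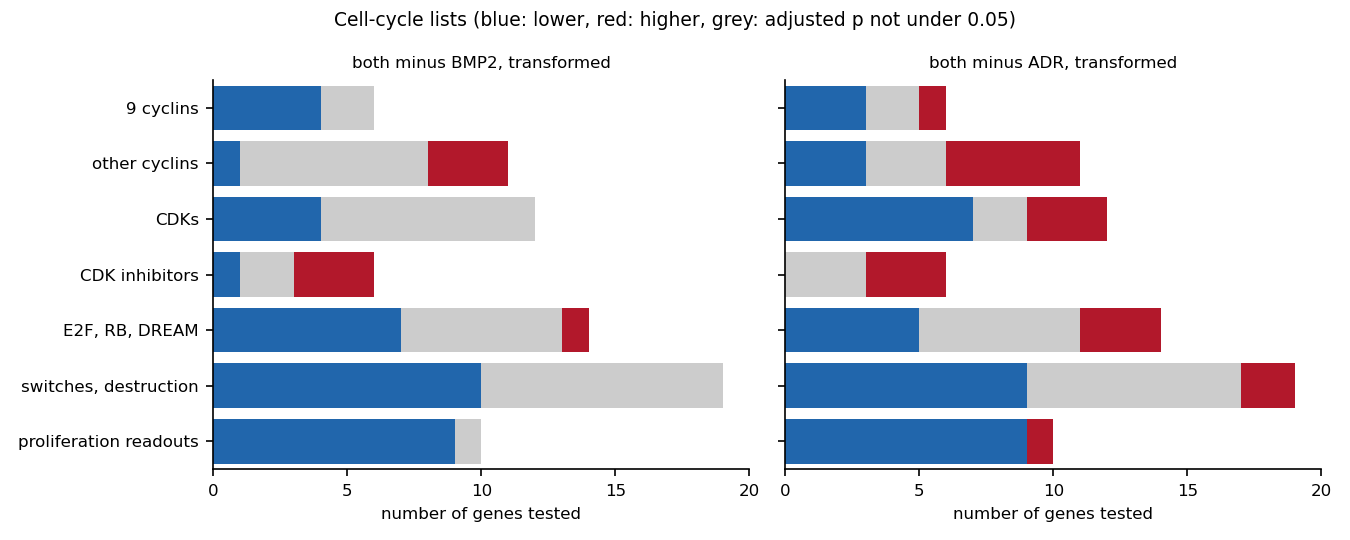
Number of genes tested (horizontal axis) in the 9 cyclins and 6 related lists on the transformed arrays, split into lower (blue), higher (red) and not passed (grey) at an adjusted p under 0.05 in limma. With ADR added to BMP2 (left) 4 of 6 tested cyclins and 9 of 10 proliferation readouts are lower, while 3 of 6 CDK inhibitors are higher. The right panel shows both agents minus ADR and shares the arrays with both agents. Over all genes 35.7% passed in the left comparison and 57.2% in the right.

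On the primary arrays Ccnd1 and Ccnd2 fell and Ccne1 rose with BMP2, while Ccnd3 did not pass. BMP2 arrays were compared with arrays without it, 4 against 4 over both times and both ADR states, and 20.1% of all genes passed. Ccnd1 measured 11.72, 11.22, 11.28 and 11.03 without BMP2 and 10.69, 10.54, 10.62 and 10.54 with it. Every BMP2 array lay below every other array, and the change was -0.71 ± 0.091 (1.64-fold lower, adjusted p = 0.00206, limma), with -0.63 to -0.93 in the other 3 probes. Ccnd2 measured 9.06, 9.35, 9.41 and 9.19 without and 8.88, 8.54, 8.83 and 8.64 with BMP2 (-0.53 ± 0.098, adjusted p = 0.00954, limma), also without overlap.

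Ccne1 was higher with BMP2 in 4 of 4 pairs. It measured 8.83 and 8.69 at 8 h without BMP2 against 9.33 and 9.26 with it, and 7.94 and 8.01 at 16 h against 8.77 and 8.88. The change was 0.69 ± 0.096 (1.62-fold, adjusted p = 0.00286, limma); the ranges overlap over both times and not within a time. Ccnf was higher in 4 of 4 pairs but did not pass (0.36 ± 0.13, adjusted p = 0.0941, limma); it passed on the authors' log2 values (adjusted p = 0.044). Ccnd3 (0.22), Ccne2 (0.14) and Ccna2 (-0.10) did not pass. The calls of Ccnd1, Ccnd2 and Ccne1 held when any single array was left out (adjusted p at most 0.0416, limma).

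Around them, 4 of 14 E2F, RB and DREAM genes were lower, 2 were higher, and none of 10 proliferation readouts passed (median 0.00031). Of 6 CDK inhibitors 1 was higher, Cdkn1a (0.98 ± 0.11), and 2 were lower, Cdkn1c, which encodes p57 (-1.83 ± 0.072), and Cdkn2b (-0.33 ± 0.081).

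ADR gave no cyclin call on the primary arrays. With ADR, 0 of 7 cyclins and 0.297% of all genes passed (28 genes, and 861 at an unadjusted p under 0.05, by limma). Ccnd1 came nearest, lower in 4 of 4 pairs by -0.24 ± 0.091 in the fit (adjusted p = 0.482), and the Ccne1 interval ran from -0.23 to 0.21. The p53 target Cdkn1a did not pass with ADR either (0.057 ± 0.11, adjusted p = 0.933, limma), nor did Ccng1 (0.059 ± 0.14, adjusted p = 0.948, limma). Of the CDK inhibitors Cdkn1c passed, as lower (-0.69 ± 0.072, adjusted p = 0.017, limma). From 8 h to 16 h Cdkn1a rose by 1.13 and Ccng1 by 1.43, each in 4 of 4 pairs (adjusted p = 0.000939 for both, limma). The interaction of BMP2 and ADR was passed by 0 of 7 cyclins and 0% of all genes, with 573 at an unadjusted p under 0.05 by limma.

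Time separated Ccne1, Ccnf and one probe of Ccnd3. Between 16 h and 8 h, 29.5% of all genes passed, at 4 arrays a side. Ccne1 was lower at 16 h in 4 of 4 pairs (-0.63 ± 0.096, adjusted p = 0.00436, limma). The Ccne1 ranges overlapped through the 16 h arrays with BMP2, at 8.77 and 8.88, against 8.83 and 8.69 at 8 h without it. Ccnf measured 6.25, 6.55, 6.06 and 6.92 at 8 h and 6.88, 7.11, 7.04 and 7.08 at 16 h, higher in 4 of 4 pairs (0.58 ± 0.13, adjusted p = 0.0151, limma). Its ranges overlapped through the 8 h array with both agents, and without the untreated 16 h array its adjusted p was 0.05. The brightest Ccnd3 probe rose by 0.91 ± 0.11 (adjusted p = 0.00228, limma) from 6.12 to 6.58 at 8 h to between 7.11 and 7.50 at 16 h, but the second probe changed by -0.63 and their mean by 0.14 (adjusted p = 0.288, limma). Under median scaling 77% rather than 42.4% of called genes were higher, with the median of all genes at 0.070 rather than -0.047.

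**Figure D5:**
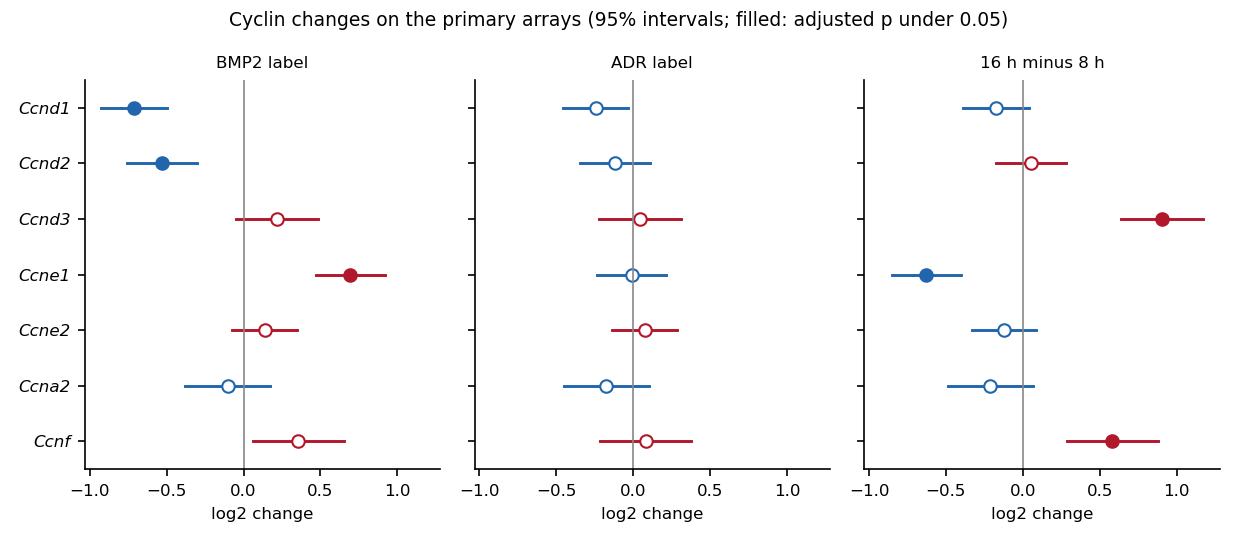
Log2 change with its 95% interval (horizontal axis) of 7 cyclins on the primary arrays, 4 arrays against 4, for the BMP2 label, the ADR label and 16 h minus 8 h; filled points had an adjusted p under 0.05 in limma. Ccnd1 and Ccnd2 are lower and Ccne1 higher with BMP2, no cyclin passes for ADR, and the Ccnd3 point for time is its brightest probe only.

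Differences between the sets were tested in 1 fit of all 16 arrays, since a pass in one set and not in the other does not show a difference. For ADR added to BMP2, 1 of the 6 cyclins above background in both sets passed against 20.3% of all genes. Ccne1 differed by -1.10 ± 0.19 (adjusted p = 0.00212, limma): with both agents it lay at 9.26 and 8.88 on the primary arrays, next to 9.33 and 8.77 with BMP2. Without the rebuilt array the difference was -1.20 (adjusted p = 0.00617, limma). Ccne2 (-0.54 ± 0.19, adjusted p = 0.0693) and Ccnd3 (-0.58 ± 0.21, adjusted p = 0.0748) did not pass in limma. The Ccnd3 difference passed without either untreated primary array (adjusted p = 0.0322), which gives a count of 2. Under median scaling 67.6% rather than 52.8% of called genes were higher.

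For BMP2 added to ADR, a comparison added after the data were seen, 3 of the same 6 passed against 44.7% of all genes. Ccnd1 differed by 0.93 ± 0.16 (adjusted p = 0.000533, limma), since it was higher with both agents than with ADR on the transformed arrays and lower on the primary arrays. Ccne1 differed by -1.29 ± 0.19 (adjusted p = 0.000189, limma) and went the other way, lower on the transformed and higher on the primary arrays. Ccnd3 differed by -0.98 ± 0.21 (adjusted p = 0.00268, limma), and its second probe by -0.59. Ccnd2 was lower with both agents in each set, and its difference between them did not pass (-0.13, 95% interval -0.50 to 0.24). The transformed set was at 12 h and the primary set at 8 h and 16 h, so set and time cannot be told apart here.

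Among themselves the cyclins did not vary as one group. After the mean of each set was removed, correlations between any 2 of the 7 over 16 arrays ran from -0.51, for Ccnd2 with Ccnf, to 0.54, for Ccne1 with Ccne2. Ccnf was above background on 1 of 8 transformed arrays, so its values there are mostly background. Among pairs without Ccnf the lowest was -0.46, for Ccnd1 with Ccnd3. Within the 8 transformed arrays Ccnd2 and Ccnd3 had a correlation of 0.92, and within the 8 primary arrays -0.056. These points share treatments and array normalisation, and are descriptions only.

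The genes whose pattern was most like each cyclin, by the same correlation among 5968 genes above background on all 16 arrays, differed from cyclin to cyclin. Ccne1 was closest to Hacd1 (0.95), Mfsd10 (0.95) and Siah2 (0.92). Ccnd1 was closest to Flt1 (0.91), Gpn2 (0.88) and Ccz1 (0.88), and Ccnd2 to Rpl27a (0.92), 1810009A15Rik (0.91) and Ufsp2 (0.90). Ccnd3 was followed by Msn (0.93), Epb41l2 (0.92) and Tes (0.92).
Ccnf was nearest to Ccng1 (0.89), Cdkn1a (0.88) and Rnf169 (0.88). Ccnf was above background on 1 transformed array only, and within the primary arrays its correlation with Ccng1 was 0.90. Ccne2 was closest to Polr2d (0.87), Ythdc1 (0.87) and Fhl1 (0.84), but within the primary arrays these were only 0.43, 0.13 and 0.43. Ccna2 had no close neighbour, at 0.72 for Sltm, 0.70 for Cox11 and 0.70 for Rwdd2b.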

How the data were processed

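The 16 BeadChip arrays were scanned with a Cy3 label and read with GenomeStudio 2011.1, per the submitters' processing notes. The authors deposited a non-normalised table with the intensity of each probe and a detection column per array, and a table of log2 values. The deposited detection values are a fraction near 1 for bright probes, despite a heading that names a p-value, so the detection p was taken as 1 minus that fraction. Comparing both showed that the deposited log2 values equal log2 of the signal minus the array's 75th percentile and minus the probe's median over arrays (largest departure 0.00077). For the array whose intensity column repeated another, intensities were rebuilt from that log2 table, and 99.9% lay within 0.01 of a step of 0.1. The rebuilt intensities had a rank correlation of 0.992 with the detection values of the same array, against 0.947 or less for the other 15, and the same procedure returned 100% of their intensities.

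Intensities were background-corrected and quantile-normalised with neqc (limma 3.58.1, R 4.3.3, offset 16) and taken to log2. Of 24613 probes, 20984 had 1 gene symbol, 1 had several and 3628 had none in the platform annotation. A gene was represented by its brightest probe with a detection p under 0.05 on at least 2 arrays, and entered a fit if detected on at least 2 of its arrays. limma fits of the transformed set and the primary set each had 3 residual degrees of freedom, and the fit of all 16 arrays had 6, with Benjamini-Hochberg adjustment over all genes and a threshold of 0.05. The procedure was tested on simulated data. Tables were handled with Python 3.11.15 and pandas 2.3.3.

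The number of arrays, 1 per condition, limits the precision. The cyclins and the related lists were chosen with earlier results of these data known. Named are all cyclins and, in each list, the genes with the widest change among those passed. The change meant is that with ADR added to BMP2 on the transformed arrays. Rb1 was an exception, named as the only riser of the E2F, RB and DREAM list. In that list Rbbp4 (-0.75) and Rbl1 (-0.72) passed with wider changes than Rb1. Cdk4, Cdk6 and list genes named in other comparisons were chosen after their values were seen. Alternatives covered background correction, scaling, the authors' log2 values, the detection filter, the probe rule, the variance model, the model terms and leaving out each array.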

Additional observations from a re-analysis of the deposited data

Results flagged for a closer look

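The changes below differed between groups by a test of the difference itself (limma, adjusted over all genes). Between the transformed and primary sets, the change of Ccne1 when ADR was added to BMP2 differed by -1.10 (adjusted p = 0.00212). For BMP2 added to ADR, a comparison chosen after seeing the data, the sets differed by 0.93 for Ccnd1, by -0.98 for Ccnd3 and by -1.29 for Ccne1. Within the transformed set, the change with ADR beside BMP2 (both sides at 12 h) differed from that with ADR alone (12 h against 0 h, so culture time cannot be told apart) by -0.93 for Ccne1, by -0.77 for Ccnd3 and by -0.70 for Ccnd2. No condition had enough arrays for a test of single outlying samples.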

How the results depend on the processing

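Of 1542 alternatives of 85 single-gene results, 1474 stayed on the same side of the threshold, 46 lost a call, 21 gained one and 1 called value reversed. In 78 of the 1542 the sign was opposite to the reported one, in 1 of them for a value that had passed: Ccne1 with BMP2 alone on the transformed arrays, -0.11 with additive terms. The additive fit has a single term per agent, so its value for BMP2 alone is also that for BMP2 added to ADR. The cyclins called for ADR added to BMP2 there, 4 in all, became 2 under median scaling, 0 with additive terms and 2 to 4 leaving out 1 array. For BMP2 added to ADR, 4 became 2 with additive terms (3 to 4 leaving out 1 array). For ADR alone, 0 became 1 without background correction or in the joint fit of all 16 arrays and 2 on the authors' log2 values or with a robust variance trend. For BMP2 alone, 1 became 0 under median scaling, on the authors' log2 values or without a detection filter, 2 with a robust trend or additive terms, and 0 to 1 leaving out 1 array. The interaction count of 3 became 0 under median scaling and ranged from 0 to 3 leaving out 1 array. For the difference between the sets, 1 became 2 on the authors' log2 values or with the mean of detected probes, 3 with detection required on every array, and 1 to 2 leaving out 1 array. The cause of these shifts was not tested.

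Over all genes, the 3673 called for ADR added to BMP2 on the transformed arrays became 15 with additive terms and 2004 to 3617 leaving out 1 array. The 54 for ADR alone became 372 without background correction, 169 under median scaling, 522 on the authors' log2 values, 108 with detection on every array, 466 with a robust trend, 323 in the joint fit, 15 with additive terms and 0 to 22 leaving out 1 array. The 28 for ADR on the primary arrays became 82, 54, 75, 43, 88 and 43 under these settings in the same order, without additive terms, and 2 to 9 leaving out 1 array. The 15 with additive terms is the same count for both ADR comparisons, because that fit has a single ADR term. The genotype count of 0 became 10 on the authors' log2 values, 5 with a robust trend and 25 in the joint fit. The 2779 for time became 4336 on the authors' log2 values (1666 to 1857 leaving out 1 array), and the 8961 between the sets 5850 with detection on every array. Leaving out 1 array gave 762 to 1247 in place of 1840 for the transformed interaction, 1165 to 1307 in place of 1894 for BMP2 on the primary arrays and 1415 to 2213 in place of 2234 for the difference between the sets with ADR added.

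No paired analysis was possible because every condition has a single array, all numbered 1, so no replicate number pairs arrays; genotype and time already enter the fits as blocks. A slide block was not run, since the files used here name no slide. Signals near background limit Ccnf on the transformed arrays and Ccnb2 on all.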

Other observations

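Ccno, a cyclin outside the 9, was chosen after its values were seen. Its probe was above background on all 16 arrays. On the transformed arrays it measured 5.60 and 6.004 untreated and 5.40 and 6.01 with ADR, against 9.55 and 9.57 with BMP2 and 9.55 and 9.56 with both agents. Arrays with and without BMP2 did not overlap, and the change was 3.76 ± 0.16 for BMP2 alone (adjusted p = 8.7e-06) and 3.85 ± 0.16 for BMP2 added to ADR (adjusted p = 2.38e-06), by limma. Without the array whose signals were rebuilt, the change with BMP2 alone was 3.92 ± 0.20 (adjusted p = 0.000155, limma). On the primary arrays Ccno measured 7.61, 7.69, 7.89 and 7.86 without BMP2 and 8.38, 8.61, 8.82 and 8.90 with it, again without overlap (0.91 ± 0.077, adjusted p = 0.000321, limma). The difference between the sets for BMP2 added to ADR was 2.87 ± 0.20 (adjusted p = 1.11e-06, limma).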
